A study of Mus musculus with 2 samples.

Results

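Large peritoneal macrophages that carried Marco but little or no Alox15 were described in total peritoneal cells collected 3 days after zymosan. The members were chosen by their own counts in these libraries. A cell with at least 200 genes and at most 10% mitochondrial counts (unique molecular identifiers, UMIs) was a member if it met the following limits. C1qa, C1qb and C1qc summed to at least 20 UMIs per 10000, and the large peritoneal macrophage (LPM) genes Gata6, Garnl3, Tgfb2 and Ltbp1 to at least 2 UMIs. Marco had at least 2 UMIs, Alox15 at most 1, and Retnla under 10. Cd79a and Cd3e summed to at most 2, and the cycle genes Mki67, Top2a, Birc5, Ube2c, Cenpf and Nusap1 to under 5. There were 395 members among 30733 cells, 278 of them Cd36-/- and 117 fl/fl. The Cd36-/- mice carried floxed Cd36 and LysM-Cre, a Cre recombinase knocked into the Lyz2 gene and so active across the myeloid lineage. The fl/fl mice carried floxed Cd36, with no Cre named in their label. All were aged 10 to 14 weeks and received 1 mg of zymosan per animal into the peritoneal cavity. Each library was a pool of 4 replicates, which leaves a single library per genotype and no replicate check. No test was possible, and every interval is a 95% interval for counting error alone. The intervals are exact, except those of differences between shares, which were combined from the exact intervals of both shares.

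Large peritoneal macrophages are the resident macrophages of the peritoneal cavity, and the transcription factor Gata6 maintains their identity. Marco is a class A scavenger receptor that binds microbes and particles. Alox15 is a lipoxygenase that oxygenates polyunsaturated fatty acids and is a hallmark enzyme of resident peritoneal macrophages. Cd36, the gene targeted in the Cd36-/- mice, is a class B scavenger receptor for oxidised lipoproteins, long-chain fatty acids and apoptotic cells.

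The 2 libraries held 116600732 UMIs in 16543 barcodes (Cd36-/-) and 117238057 in 15537 (fl/fl), and 16000 and 14733 cells passed the filters. Members had medians of 6622.5 and 7420 UMIs per cell, and their summed UMIs came to 1999761 and 953988. The fl/fl members therefore give the coarser values, since the limit of 20 CPM (UMIs of a gene over all UMIs of the group, scaled to counts per 1000000) is about 20 UMIs there. A total of 383 barcodes occurred in both libraries, and 10 and 5 members carried one. Scrublet marked 12 and 6 members as doublets, and these were kept in the values below. Fewer cells of a type with a transcript and less RNA per cell cannot be told apart in a summed level, so shares of cells are given for the main genes.

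Measured values chose the members, so the rule set the levels of Marco, Alox15 and the LPM genes, which are given as a description. Marco had a median of 6 UMIs per member (2 to 53) for Cd36-/- and 4 (2 to 67) for fl/fl. Its summed level was 1188 and 828 CPM, against 30.2 and 15.4 CPM in B cells, which should lack it. Alox15 was at 72 and 52.4 CPM in members and at 37.7 and 25 CPM in B cells, where its UMIs are taken as free RNA. Alox15 in members was thus about 2-fold above its level in cells that should lack it. The rule held Alox15 to at most 1 UMI per member and set no limit on B cells, so the gap measures no remaining expression. Gata6 was at 83 and 116 CPM, and B cells had 2.24 and 1.87. Tgfb2, a secreted growth factor, stood at 326 and 275 CPM and gave more UMIs than any other of the 4 genes, with a median of 2 UMIs in both libraries. The limits of the rule themselves set Marco and the LPM genes above their level in B cells, so this shows no more than that the rule was applied.

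Resident macrophage genes that the rule did not use were also present. Timd4, a phosphatidylserine receptor of resident macrophages, was at 415 and 275 CPM, with UMIs in 85.3% and 69.2% of members against 6.28% and 5.02% of B cells. Icam2, an adhesion molecule of LPM, was at 646 and 542 CPM. Neither gene was confined to LPM. Timd4 had UMIs in 47.5% and 40.2% of Gata6-low macrophages, which had 0 UMIs of the 4 LPM genes. In the Cd36-/- library Icam2 had UMIs in 75.8% of these macrophages and 85.6% of members. Saa3, an acute phase apolipoprotein and the fifth marker of the label, was at 49830.5 and 30634 CPM against 2609 and 1631 in B cells, whose UMIs are taken as free RNA. Per 10000 UMIs of a member, Saa3 ranged from 27.1 to 1896, with a median of 495, in the Cd36-/- library. In the fl/fl library it ranged from 18.1 to 1429.5, with a median of 279.

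Markers of other cells were low but not absent. The 12 B cell markers summed to 588 and 744 CPM in members, against 27705 and 25342 in B cells. The 13 T and NK cell markers summed to 448 and 426 CPM, against 12164 and 11256 in T cells, and Ccl5 alone gave 398 and 311 CPM of that. Of the 12 mast cell, eosinophil and platelet markers, 7 had no UMI in either library's members, and the list summed to 16.5 and 12.6 CPM. The part of these transcripts in the results below was not tested.

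The promoter-side sequences of Marco and Saa3, the gene that defines the cells and the label's most variable marker, are shown because Saa3 was higher in members with more Marco UMIs, as given further on. They are the 250 bases before the RefSeq start on GRCm38.p6, read 5′ to 3′ on the gene's strand. Capitals mark matches on either strand to TTNNGNAA, a word of C/EBP sites, and to GATAA, a word of GATA sites. Both genes lie on the minus strand, Marco at chr1:120505025-120505274 and Saa3 at chr7:46715677-46715926.
Marco: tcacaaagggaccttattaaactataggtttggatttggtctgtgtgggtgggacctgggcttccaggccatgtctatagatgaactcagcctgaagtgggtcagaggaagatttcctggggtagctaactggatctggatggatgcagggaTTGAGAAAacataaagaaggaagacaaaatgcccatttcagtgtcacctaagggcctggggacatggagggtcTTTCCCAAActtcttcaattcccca
Saa3: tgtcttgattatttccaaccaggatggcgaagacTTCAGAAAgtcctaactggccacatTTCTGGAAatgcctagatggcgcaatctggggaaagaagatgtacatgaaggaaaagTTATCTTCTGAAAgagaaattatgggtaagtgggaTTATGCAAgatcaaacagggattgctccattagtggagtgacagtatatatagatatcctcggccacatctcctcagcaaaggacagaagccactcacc
Marco held 3 matches to the C/EBP word, of which 2 overlap, and none to GATAA. Saa3 held 4 matches to the C/EBP word, among them TTATGCAA 99 bases before the start, and 1 to GATAA on the other strand. Of 27025 promoters of this length, 36.9% held the first word and 23.0% the second, so either match is common.

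The members made up a larger share of Cd36-/- cells. They were 1.74% (1.54 to 1.95) of Cd36-/- and 0.794% (0.657 to 0.951) of fl/fl cells, a ratio of 2.19 and a difference of 0.943 points (0.692 to 1.198). The macrophage gate as a whole was larger in the Cd36-/- library, 59.5% against 48.2% of cells, so shares within it were compared as well. Of the LPM, 6.46% and 3.79% were members, a difference of 2.67 points (1.64 to 3.68). Marco-positive Alox15-positive LPM were 41.4% and 39.7% of LPM, with a difference of 1.69 points (-0.60 to 3.98). Marco-low Alox15-positive LPM were 37.9% and 42.5%, and Marco-low Alox15-low LPM 14.3% and 14.0%. The members thus had the largest ratio between the libraries among the 4 groups, although 1 pool per genotype gives no spread between mice.

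**Figure D1:**
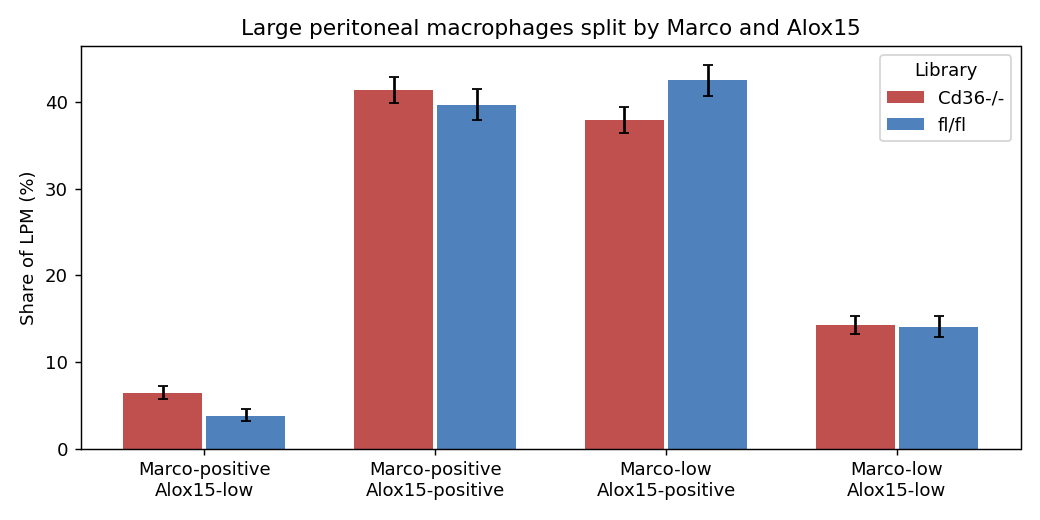
Share of LPM (%, from 0) in each of 4 groups set by Marco and Alox15 UMIs, for the Cd36-/- (red) and fl/fl (blue) libraries; bars show exact 95% binomial intervals that cover counting error only. The Marco-positive Alox15-low group stands at 6.46% and 3.79%.

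Both sides of the rule differed between the libraries. Among Alox15-low LPM, 31.2% (28.1 to 34.3) of Cd36-/- and 21.3% (17.9 to 24.9) of fl/fl cells were Marco-positive. Among Marco-positive LPM, 13.5% (12.1 to 15.1) and 8.72% (7.27 to 10.4) were Alox15-low. Marco-positive cells among all LPM were closer, at 47.8% and 43.5%. Because raw UMIs depend on depth, the limits were also applied after cells had been thinned to 4000 UMIs. This left out 4413 and 4166 cells with fewer UMIs, so 11587 and 10567 cells remained. Of the remaining cells, 250 and 133 were members, or 7.94% and 5.78% of the LPM among them. The ratio of the members' shares of the remaining cells was 1.71. Marco-positive Alox15-low cells were also more frequent among Gata6-low macrophages, at 8.15% and 5.74%. Cycling cells that met the other limits numbered 20 and 9.

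Alox15 had no gap at the limit. Among Marco-positive LPM, 6.51% of Cd36-/- and 4.996% of fl/fl cells had 0 Alox15 UMIs, 6.99% and 3.73% had 1, and 5.49% and 5.67% had 2. The values of cells just inside and just outside the limit are given without a test. With 1 UMI, Saa3 was at 54215 CPM in Cd36-/- and 28674 in fl/fl cells, and with 2 UMIs at 66034 and 42933. Fabp4, a fatty acid carrier, was at 450.4 and 562 CPM inside and at 537 and 858 outside. The chemokine receptor Ccr2 was at 95 and 144 CPM inside and at 51.5 and 41 outside. Ccr2 was thus higher, and Fabp4 lower, on the inner side in both libraries.

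**Figure D2:**
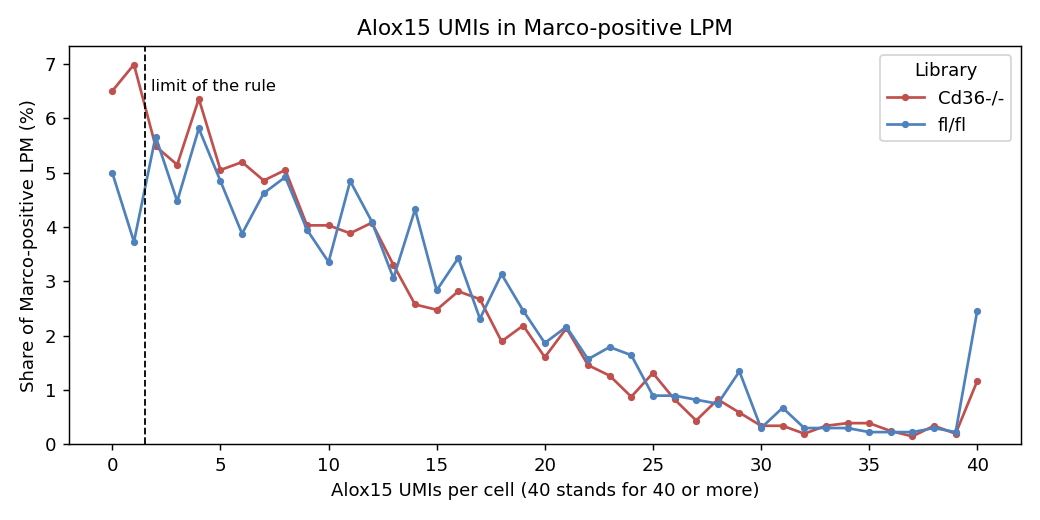
Share of Marco-positive LPM (%) at each number of Alox15 UMIs per cell, in the Cd36-/- (red) and fl/fl (blue) libraries; the dashed line marks the limit of the rule, and 40 stands for 40 or more. The counts run on past the limit with no gap between low and positive cells.

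The members were first set against the 1631 and 1310 Alox15-positive Marco-low LPM of the same libraries (medians of 7041 and 7829.5 UMIs per cell). The groups were defined by Marco and Alox15, so the values describe them and support nothing by themselves. Members had less F5, Fabp4 and Ptgis and more Tppp3, Rhoc and Anxa5 in both libraries. Of 4458 genes compared, 14 (0.314%) were at least 2-fold higher and 15 (0.336%) at least 2-fold lower in the members in both libraries. The number of lower genes depended on how the limits were applied. With the limits applied after thinning cells to 4000 UMIs, 10 genes were higher and 2 lower. Thinning also changed which cells met the limits, and the part of depth in this was not tested.

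Among the lower genes, coagulation factor F5 was at 166 CPM in Cd36-/- members against 451 in Alox15-positive LPM, and at 202 against 566 in the fl/fl library. Fabp4 was at 364 against 812 CPM and at 408 against 991. Ptgis, the prostacyclin synthase, was at 163 against 346 and at 153 against 388 CPM. These 3 genes were each more than 2-fold lower in both libraries. With limits applied after thinning, the log2 ratios were -0.80 and -0.58 for F5, -0.46 and -0.53 for Fabp4, and -0.80 and -0.73 for Ptgis, which kept the direction at a smaller size. The peptidoglycan recognition protein Pglyrp1 was at 109 against 273 and at 119 against 302 CPM. The chemokine Cxcl12 was at only 3 against 21.5 and at 4.19 against 25 CPM. The tetraspanin Cd9, a marker of LPM, was at 226 against 463 and at 220.1 against 397 CPM. Prg4, a secreted lubricant of the peritoneal surface, was lower by less, at 1335 against 2065 and 1211 against 2247 CPM.

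Among the higher genes, Tppp3, which binds microtubules, was at 192 CPM in Cd36-/- members against 83.2 in Alox15-positive LPM, and at 299.8 against 78.1 in the fl/fl library. The actin regulator Rhoc was at 270.0 against 121 and at 260.0 against 116 CPM. Both genes thus stood higher in the members than in Alox15-positive Marco-low LPM of either genotype. With limits applied after thinning the log2 ratios were 1.15 and 1.48 for Tppp3 and 1.03 and 1.01 for Rhoc. The calcium-binding S100a6 was at 2229.8 against 1120.0 and at 2134 against 1064 CPM. Anxa5, which binds phosphatidylserine, was at 168 against 74.9 and at 181 against 65.9 CPM. The transglutaminase Tgm2 was at 34 against 10.7 and at 45.1 against 13.7 CPM. The hyaluronan receptor Cd44 had a smaller difference, at 278 against 149.6 and 324 against 157 CPM. Folate receptor beta, Folr2, was at 86.5 against 29.6 and at 58.7 against 26.7 CPM. Marco-positive LPM with over 10 Alox15 UMIs had Tppp3 at 113 and 122 CPM and Tgm2 at 24.1 and 25.6. Both values were above Marco-low LPM, so higher Tppp3 and Tgm2 were not particular to the members. In those cells S100a6 was at 1148 and 1107 CPM, Cd44 at 140 and 142 and Folr2 at 16.9 and 14.6. With 2 Alox15 UMIs, just outside the limit, S100a6 was at 1856 and 1345 CPM, Cd44 at 198 and 213 and Folr2 at 47.8 and 54.1. These were above Marco-low LPM, so higher levels of these genes were not particular to the members either. Cd44 had UMIs in 78.1% and 83.6% of Gata6-low macrophages, against 79.5% and 78.6% of members. Folr2 had UMIs in 42.8% and 46.9%, against 23.0% and 20.5%.

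By group, 8 of 9 compared markers of recruited and small macrophages were higher in the members in each library, with medians of 0.38 (Cd36-/-) and 0.86 (fl/fl) on the log2 scale against 0.03 and 0.14 over all genes. Of all genes compared, 54.0% (Cd36-/-) and 66.8% (fl/fl) were higher in the members, against which the counts of each list are to be read. Of the 9 MHC class II genes, 8 were higher in each, with medians of 0.31 and 0.81, and H2-Aa stood at 880.1 against 701 and 1152 against 586 CPM. With limits applied after thinning, the log2 ratios were 0.56 and 0.40 for H2-Aa and 0.59 and 0.18 for H2-Ab1. Those of H2-Eb1 were 0.67 and 0.32, and those of Cd74 0.58 and 0.34. The wider gap in fl/fl thus depended on which cells the limits kept. Some genes stand on both lists. Alternative activation genes were higher in 6 of 8 in each library, not far from the share over all genes in fl/fl, with medians of 0.43 and 0.88. Arginase, Arg1, had the widest gap of the 8 in the fl/fl library, 395 against 84.8 CPM, and was at 166 against 85.2 in the Cd36-/- library. The eosinophil chemokine Ccl24, also on that list, was lower in the members, at 126 against 417 and 173 against 309.7 CPM. The 28 LPM identity genes had medians of -0.09 and -0.17 over the 25 compared, with 14 and 16 lower. Beside these values, the 12 B cell markers summed to 529 and 625 CPM in Alox15-positive LPM and to 588 and 744 in the members, and the part of B cell RNA in the MHC class II values was not tested.

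**Figure D3:**
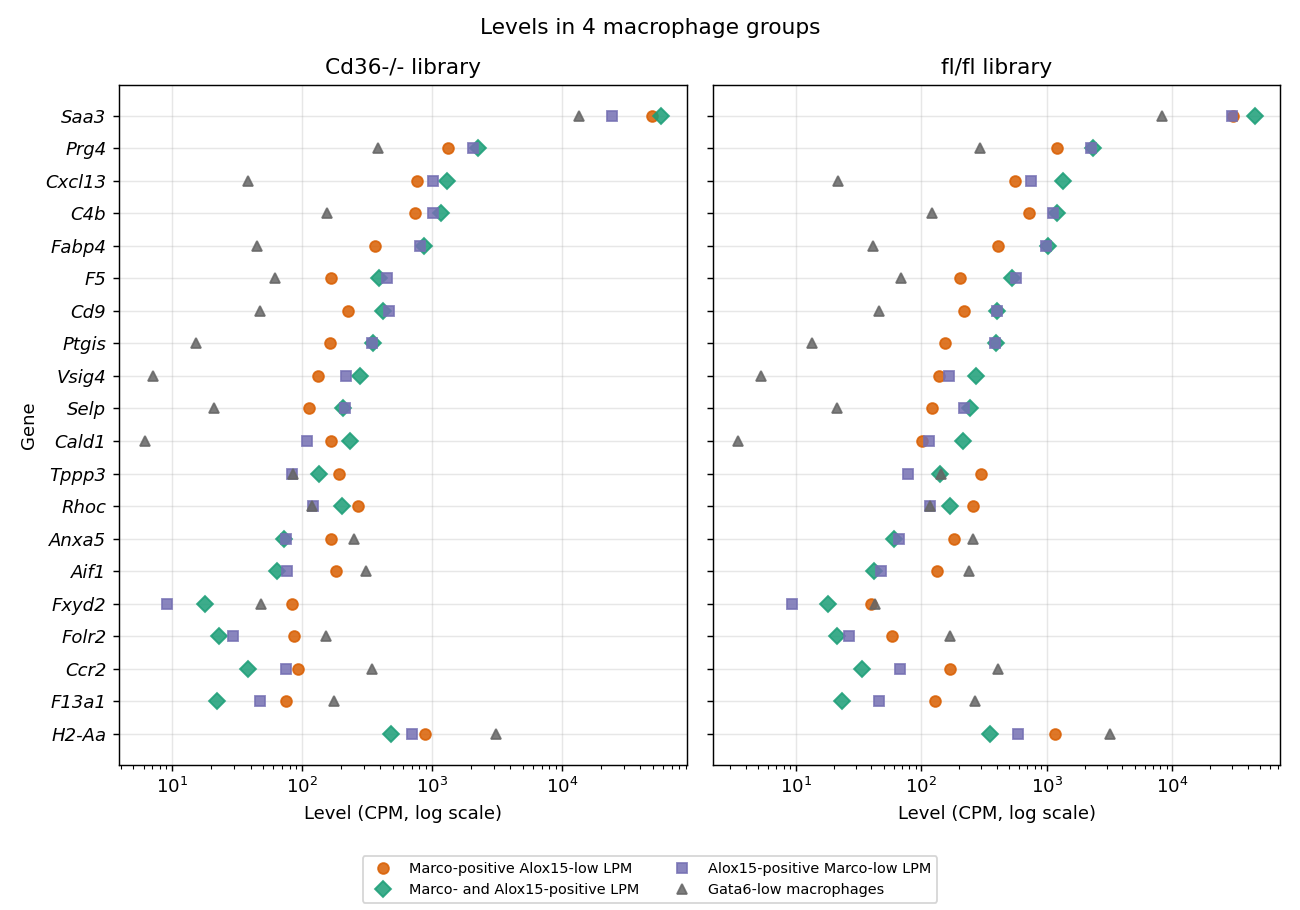
Level (CPM, log scale) of 20 genes in members (circles), Marco- and Alox15-positive LPM (diamonds), Alox15-positive Marco-low LPM (squares) and Gata6-low macrophages (triangles), one panel per library. Fabp4, F5, Cd9 and Prg4 in members lie between the Gata6-low macrophages and the other LPM, and so do Ccr2 and H2-Aa from the other side.

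Against the 2946 and 2284 Gata6-low macrophages, which met the same gates with 0 UMIs of the 4 LPM genes, the members had higher levels of resident genes. Of 4554 genes compared, 62 (1.36%) were at least 2-fold higher and 18 (0.395%) at least 2-fold lower in the members in both libraries. Of the 25 LPM identity genes compared, 22 (Cd36-/-) and 23 (fl/fl) were higher and 12 at least 2-fold higher in each, with medians of 0.74 and 0.91 against -0.06 and -0.01 over all genes, of which 41.3% and 48.9% were higher. This list includes genes of the rule's programme, so its direction is not independent of how the cells were chosen. Vsig4, a complement receptor of resident macrophages, was at 132 CPM in members against 7.14 in Gata6-low macrophages of the Cd36-/- library, and at 137 against 5.28 in fl/fl. Cald1, an actin-binding protein, was at 167 against 6.13 and at 102 against 3.49 CPM. Vsig4 had UMIs in only 24.5% and 22.2% of members, so its level came from a minority of them.

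Secreted factors were among the higher genes. The B cell chemokine Cxcl13 was at 766 CPM in Cd36-/- members against 38.3, and at 558 against 21.7 in the fl/fl library. Complement C4b was at 738 against 156 and at 719 against 122 CPM. Serpinb2, an inhibitor of plasminogen activators, was at 392 against 89 and at 332 against 73.4 CPM. The growth factor Wnt2 was at 55.5 against 4.68 and at 49.3 against 3.32 CPM. All 4 were higher in both libraries, and of the 11 complement genes compared 9 were higher and 5 at least 2-fold higher in each. Saa3 was at 49830.5 against 13625 and at 30634 against 8340.2 CPM.

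Antigen presentation and monocyte genes were lower in the members than in Gata6-low macrophages. MHC class II genes were lower in 9 of 9 (Cd36-/-) and 8 of 9 (fl/fl), with medians of -1.44 and -1.39. The invariant chain Cd74 was at 2511 against 8250.1 and at 2816 against 7751 CPM. Ciita, the master activator of MHC class II genes, was at 17.5 against 47.4 and at 16.8 against 45.6 CPM. Recruited and small macrophage markers were lower in 12 of 13 in each library, with medians of -0.95 and -1.27. Ccr2, which brings monocytes into tissue, was at 93.5 against 344 and at 168 against 409 CPM. The fractalkine receptor Cx3cr1 was at 8.5 against 37.2 and at 6.29 against 42.5 CPM. For Fabp4, F5, Cd9, Ccr2, F13a1 and H2-Aa the members' level lay between those of Gata6-low macrophages and of Alox15-positive LPM in both libraries. With limits applied after thinning this order failed for F13a1 in the Cd36-/- library, where its log2 ratio was -0.17 to Alox15-positive LPM and -2.48 to Gata6-low macrophages. For Ccr2 this order was not checked after thinning. Tppp3 and Rhoc did not follow this order, since both were higher in the members than in either group.

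Levels among the members differed with the number of LPM gene UMIs that each cell held. Members with 2 such UMIs, just inside the limit, numbered 84 and 31, those with 3 to 5 numbered 123 and 51, and those with over 5 numbered 71 and 35. Fabp4 was at 157, 274 and 672 CPM over these 3 bins in the Cd36-/- library and at 165, 365 and 699 in fl/fl. Ccr2 ran the other way, at 142, 104 and 36.3 CPM and at 320.3, 127 and 72. Vsig4 was highest in the bin over 5 UMIs in both libraries, at 168 and 278 CPM. H2-Aa was lower in that bin in the Cd36-/- library, at 379 against 1167 CPM. In fl/fl it stood at 1121 against 1256. Cells with 1 LPM gene UMI, just outside, had Fabp4 at 126 and 94.3 CPM and Ccr2 at 201 and 198. The median depth of the bins was 5831.5, 6489 and 7921 UMIs in the Cd36-/- library and 7956, 6416 and 7948 in fl/fl.

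**Figure D4:**
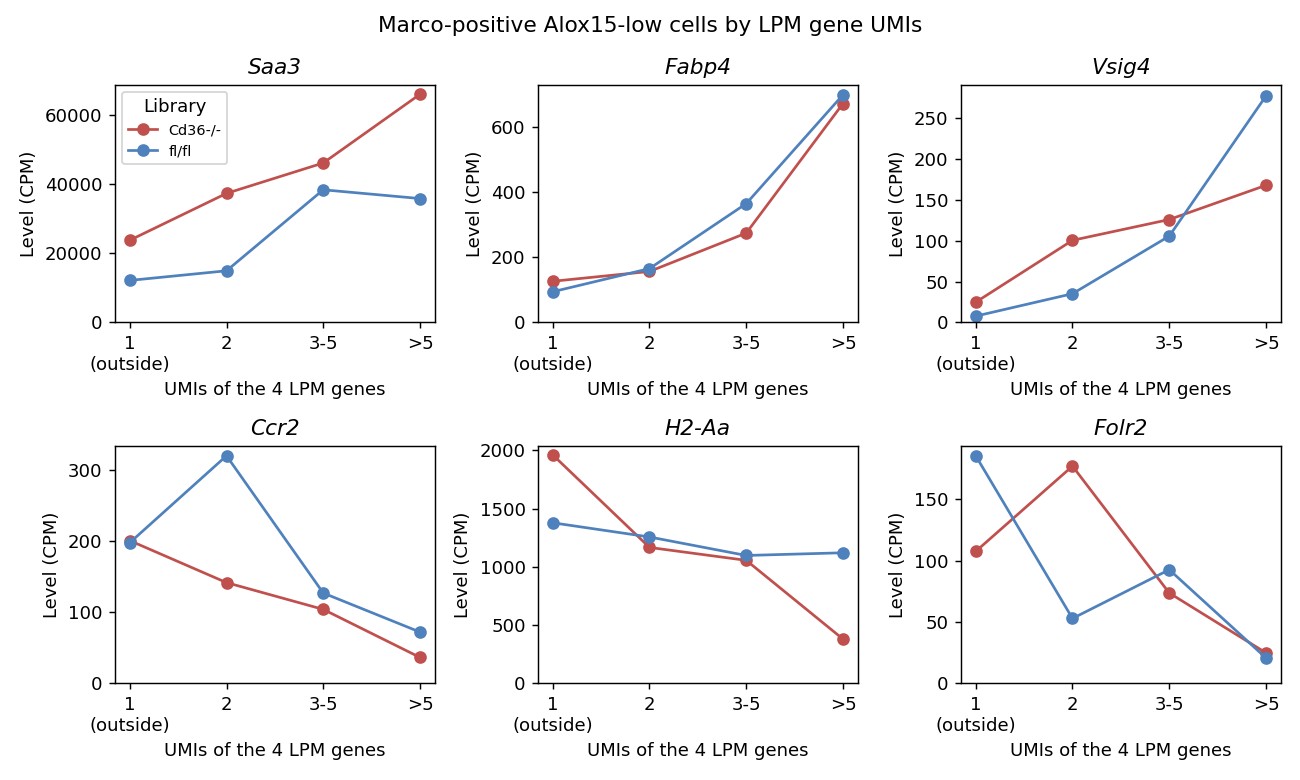
Level (CPM, from 0) of 6 genes in Marco-positive Alox15-low cells, binned by UMIs of the 4 LPM genes, in the Cd36-/- (red) and fl/fl (blue) libraries; the bin of 1 UMI lies outside the rule. Fabp4 climbs from 157 to 672 CPM (Cd36-/-) and from 165 to 699 CPM (fl/fl) between the bins of 2 and over 5 UMIs.

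Saa3 was higher in bins with more Marco UMIs. From 2 over 3 to 5 and 6 to 10 to over 10 Marco UMIs, Saa3 was at 35221, 44174, 52443 and 60784 CPM in the Cd36-/- library. In fl/fl it was at 25493, 27431, 31904 and 38439 CPM. It was lower still in cells with 1 Marco UMI, just outside, at 24495 and 13704 CPM. Deeper cells hold more Marco UMIs, and the bins' median depths ran from 5352 to 8153 UMIs in Cd36-/- and from 4795 to 10323 in fl/fl, with 16 cells in the last fl/fl bin.

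Spread from cell to cell was measured as variance over mean (Fano factor) after 250 and 103 members had been thinned to 2000 UMIs. Saa3 led the 929 genes ranked, at 57.8 (Cd36-/-) and 66.0 (fl/fl) against a median gene of 1.07 in both. Slpi, a secreted inhibitor of serine proteases, followed at 34.2 and 21.5. The MHC class II genes Cd74, H2-Ab1, H2-Aa and H2-Eb1 were all among the 15 highest, and Cd74 stood at 13.2 and 10.9. Cxcl13, at 8.21 and 14.0, had UMIs in 37.2% and 33.0% of thinned members. General transcripts were among the 15 as well, with Actb, cytoplasmic actin, at rank 3 with 12.9 and 12.6, and Malat1 and Ftl1 further down. The part of free RNA in this spread was not tested.

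Between the genotypes, the targeted gene was checked first. Cd36 was at 185 CPM in Cd36-/- and 324 in fl/fl members, a log2 ratio of -0.81 (-1.03 to -0.59). With limits applied after thinning the ratio was -0.51, which is under 1.5-fold. A UMI of Cd36 was found in 62.6% and 80.3% of members, or 30.4% and 42.7% after thinning to 2000 UMIs. Thinned B cells had one in 5.99% and 4.91%, and thinned T cells in 2.61% and 2.92%. Cd36 transcripts were thus lower in the Cd36-/- members, but found in a far larger share of them than of B or T cells. A 3′ count does not show whether a transcript lacks the deleted exons, so this is a limited check of the deletion. Lyz2, the lysozyme gene that hosts Cre, was at 16581 and 26496 CPM, with a log2 ratio of -0.68 (-0.70 to -0.65). Its close paralog Lyz1, with which reads can be exchanged, went the other way, at 2311 and 418 CPM. Lyz1 was also at 247 and 33.8 CPM in B cells as free RNA.

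Of 4907 genes compared, 187 (3.81%) were at least 1.5-fold higher and 339 (6.91%) at least 1.5-fold lower in Cd36-/- members. When the counting interval also had to exclude no difference, 87 (1.77%) and 213 (4.34%) were left. The split of higher against lower depended on scaling. The median gene stood at -0.07 on the log2 scale, and with values centred on it 239 genes were higher and 256 lower. Of all genes compared, 41.2% were higher and 58.8% lower in Cd36-/- members by any size, so more lower than higher genes in a list is the background here.

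Secreted defence proteins stood higher in Cd36-/- members. Saa3 was at 49830.5 against 30634 CPM, a log2 ratio of 0.70 (0.68 to 0.72). Slpi was at 9533 against 5024 CPM, a log2 ratio of 0.92 (0.88 to 0.97). In Alox15-positive LPM of the same 2 libraries, the ratio was -0.31 for Saa3 and 0.00 for Slpi, and the gap between the cell groups was not tested. Marco and Alox15 double-positive LPM had the members' direction, with Saa3 at 58103 against 45282 CPM, a log2 ratio of 0.36, and Slpi at 14703 against 12590.4, a log2 ratio of 0.22. In Gata6-low macrophages the ratios were 0.71 and 0.56. With limits applied after thinning, the members' ratios were 0.42 and 0.21, so that of Slpi depended on which cells the limits kept. Wfdc17, a secreted protein of the same domain family as Slpi, was at 11934 against 8178 CPM. The chemokine Pf4, platelet factor 4, was at 3001 against 1969 CPM, but its log2 ratio was 0.30 with limits applied after thinning, which is under 1.5-fold. Of the 14 acute phase and antimicrobial genes compared, 9 were higher and 5 lower, 4 and 1 of them by 1.5-fold, with a median of 0.27 against -0.07 over all genes. Of 8 chemokine ligands, 6 were higher, with a median of 0.40. Cxcl2, a neutrophil chemokine, was at 57 against 17.8 CPM, but its ratio was -0.36 with limits applied after thinning.

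Interferon-inducible GTPases were also higher, in 6 of 8 genes compared with their regulator Irf1, 3 of them by 1.5-fold, and with a median of 0.45. Gbp2 was at 156 against 91.2 CPM, a log2 ratio of 0.77 (0.42 to 1.13), and the ratio was 0.79 with limits applied after thinning. With those limits Igtp was at 0.83, but Gbp3 was at 0.41 and Gbp2b fell from 0.74 to 0.35, both under 1.5-fold. The 10 inflammatory and NF-kappaB target genes compared were higher in 8, with a median of 0.27. Acod1, which makes itaconate, was at 34.5 against 5.24 CPM, and its log2 ratio of 2.72 became 0.41 after thinning. Nuclear genes of oxidative phosphorylation were higher in 32 of 42, but by a median of only 0.08 and with none past 1.5-fold. Mitochondrially encoded genes went the other way, with 11 of 12 lower, 1 of them by 1.5-fold, and a median of -0.20. Timd4 was at 415 against 275 CPM, and its log2 ratio of 0.59 became 0.19 after thinning. Fxyd2, a sodium pump subunit, was at 83.5 against 39.8 CPM in members and at 9.09 against 9.25 in Alox15-positive LPM. Cdkn2a, the cell cycle inhibitor locus, had UMIs in 23 Cd36-/- members and 1 fl/fl member, and its ratio of 4.55 became 0.88 after thinning.

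Glucocorticoid-induced genes stood lower in Cd36-/- members, in 10 of 12 compared and by 1.5-fold in 6, with a median of -0.53. Fkbp5, a co-chaperone of the glucocorticoid receptor, was at 4.5 against 36.7 CPM, a log2 ratio of -3.03 (-4.27 to -1.94). Per1, a clock gene that glucocorticoids induce, was at 4.5 against 25.2 CPM, a log2 ratio of -2.48 (-3.77 to -1.33). Tsc22d3, a leucine zipper protein, was at 163 against 317 CPM, a log2 ratio of -0.96 (-1.19 to -0.73). With limits applied after thinning, the ratios of these 3 genes were -2.75, -2.47 and -0.74. Lepr, the leptin receptor, which is on the same list, was at 8.5 against 27.3 CPM, and its log2 ratio of -1.68 became -0.25. Fkbp5, Per1 and Tsc22d3 were also lower in Alox15-positive LPM, with log2 ratios of -0.37, -1.45 and -0.69, and in Gata6-low macrophages, with -2.41, -2.01 and -0.68. Lower levels of these 3 genes were thus seen in 3 macrophage groups of the same 2 pools, and the part of differences between the pools was not tested.

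**Figure D5:**
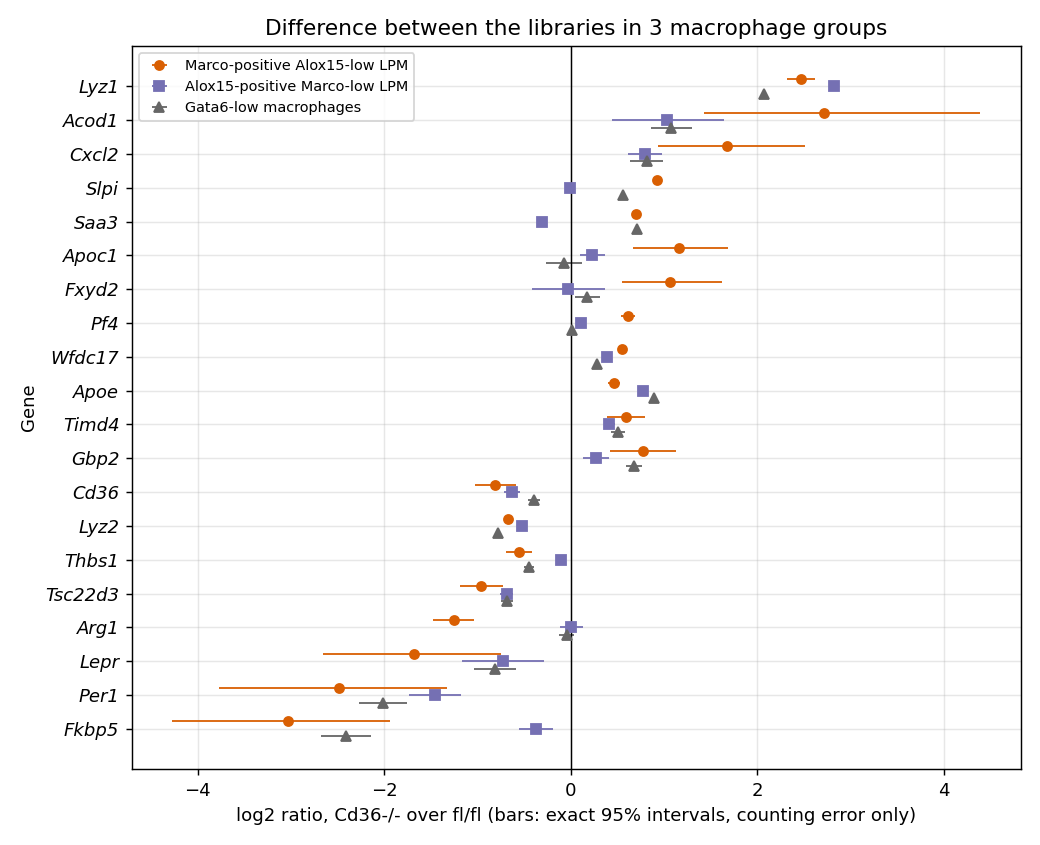
Log2 ratio of Cd36-/- over fl/fl for 20 genes in members (circles), Alox15-positive Marco-low LPM (squares) and Gata6-low macrophages (triangles), with exact 95% intervals that cover counting error only. Saa3, Slpi, Fxyd2 and Arg1 have ratios in members of 0.70, 0.92, 1.07 and -1.26, and in Alox15-positive LPM of -0.31, 0.00, -0.02 and 0.01.

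Alternative activation genes were lower in Cd36-/- members in 8 of 10 compared, 4 of them by 1.5-fold, with a median of -0.43. Arg1 was at 166 against 395 CPM, a log2 ratio of -1.26 (-1.47 to -1.04), with UMIs in 34.9% and 45.3% of members. Its ratio was 0.01 in Alox15-positive LPM and -0.04 in Gata6-low macrophages, and the gap to the members was not tested. Single fl/fl members held up to 89 of the 377 Arg1 UMIs there. The matrix and repair genes were near the background, with 8 of 13 lower, 1 past 1.5-fold, and a median of -0.11. Thbs1, thrombospondin 1, a ligand of Cd36, was at 499.6 against 736 CPM, a log2 ratio of -0.56 (-0.70 to -0.42), which was -0.57 after thinning. Plin2, a coat protein of lipid droplets, was at 223 against 325 CPM, a log2 ratio of -0.54 (-0.76 to -0.33). The 18 efferocytosis genes compared were lower in 14 with a median of -0.15, and 18 of 19 unfolded protein response genes were lower with a median of -0.24. These last groups differed little in size, and only 1 and 2 of their genes were past 1.5-fold lower.

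Other values turned with the choice of cells. Ccr2 was at 93.5 against 168 CPM, a log2 ratio of -0.84 that was -0.26 with limits applied after thinning. H2-Aa was at 880.1 against 1152 CPM, a ratio of -0.39 that turned to 0.32, and Cd74 turned from -0.16 to 0.47. Gzma, a cytotoxic lymphocyte protease, was at 6.5 against 48.2 CPM, but 1 fl/fl cell held 38 of the 46 UMIs. The LPM identity genes as a group showed no common direction, with 10 higher and 15 lower of 25 and a median of -0.06, close to that of all genes.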

How the data were processed

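Total peritoneal cells were profiled with 10x 3′ v2 chemistry, per the labels' protocols. Values are UMI counts per gene and barcode, deposited without normalization. The submitters' processing notes name Cell Ranger and mm10, and the file headers give software version 3.0.0. The members and all gene lists were chosen with earlier results of these data known.

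Cells with at least 200 genes and at most 10% mitochondrial UMIs were kept, and Scrublet doublets (scanpy 1.11.5) were marked but kept. Raw counts were summed per group of cells and library and divided by their total (CPM). Exact Poisson, binomial and Clopper-Pearson intervals (95%) were computed with scipy 1.17.1 in Python 3.11.15, and they cover counting error only. Intervals of differences between shares were combined from the exact intervals of both shares and are approximate. Genes with at least 20 CPM in 1 library were compared between genotypes, and a gene was called at 1.5-fold. Between cell groups a gene was called at 2-fold in both libraries, with at least 20 CPM in 1 group of each library. Genes of the rule were left out of these counts. Gata6-low macrophages had 0 UMIs of the LPM genes, and B and T cells served as the measure of free RNA. No test was run, because each genotype was 1 pool and cells are not replicates.

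Named genes were the gating genes, the markers, Cd36, Lyz2 and Lyz1, the 15 highest and lowest per comparison by the interval bound nearest 0, the 15 genes of highest Fano factor and up to 4 per list by the same ranking. Genes named outside it were chosen after their values were seen. The call rule with the interval, the bins around the limits, the promoter words and the members without NK or T cell transcripts were also chosen after seeing the data. Summing and intervals were tested on simulated data. Clec7a and Ifi30 were not analysed here.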

Additional observations from a re-analysis of the deposited data

Results flagged for a closer look

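In 11 genes the difference between Cd36-/- and fl/fl in the members ran opposite to that in Alox15-positive Marco-low LPM, with the 2 counting intervals on opposite sides of 0. For scale, 4907 genes were compared between the genotypes in the members. Some bounds came close to 0, at -0.015 for Atic in members and 0.006 for Sf3a1 in Alox15-positive LPM. The difference between the cell groups was not tested. In Marco and Alox15 double-positive LPM, 5 of the 11 had the members' sign and 6 the opposite. Saa3 had log2 ratios of 0.70 in members, -0.31 in Alox15-positive LPM and 0.36 in double-positive LPM. Its ratio in Gata6-low macrophages, given above, also had the members' sign. Gbp2b, an interferon-inducible GTPase, had 0.74 and -0.15, and the lysophospholipase Lypla2 had 1.04 and -0.25. With limits applied after thinning, the ratio of Gbp2b in members was 0.35. The other 8 genes were lower in Cd36-/- members and higher in Cd36-/- Alox15-positive LPM. Atic, an enzyme of purine synthesis, had -0.68 and 0.32. Plekhf2 had -1.03 and 0.28, and Suclg1, a subunit of succinate-CoA ligase, had -0.64 and 0.30. The actin regulator Eps8 had -0.64 and 0.25, and the scaffold protein Gipc1 had -0.97 and 0.39. The annexin Anxa11 had -0.76 and 0.24. The splicing factor Sf3a1 had -0.86 and 0.24, and the RNA-binding protein Larp4 had -0.90 and 0.26.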

How the results depend on the processing

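Limits on mitochondrial counts or genes per cell, and leaving out Scrublet doublets or shared barcodes, moved no share, Cd36 or Lyz2 ratio beyond its counting interval and no count of genes by over 1.5 times. Without members that held NK or T cell transcripts, added after seeing the data, 231 and 91 members were left (1.44% and 0.618% of cells), Cd36 was at -0.66, and counts between genotypes were 256 and 495, within 1.5 times of 187 and 339. No paired analysis was possible because each genotype was 1 pooled library, and no replicate could be left out. Where values moved, the cause was not tested. Shares of cells are given as Cd36-/- and fl/fl, and counts as higher and lower genes. With at least 3 Marco UMIs the shares were 1.34% and 0.638% and Lyz2 was at -0.72. With 0 Alox15 UMIs the shares were 0.838% and 0.455%, Lyz2 was at -0.70, and counts were 353 and 655 between genotypes and 28 and 23 against Alox15-positive LPM. With at least 3 LPM gene UMIs the shares were 1.21% and 0.584%, Lyz2 was at -0.74, 567 genes were lower between genotypes and 35 against Gata6-low macrophages. With limits on cells thinned to 4000 UMIs the shares were 2.16% and 1.26%, with a ratio of 1.71. These are shares of the 11587 and 10567 cells deep enough to be thinned. Cd36 was at -0.51 there and Lyz2 at -0.70. Counts there were 107 and 191 between genotypes, 2 lower against Alox15-positive LPM, and 108 and 76 against Gata6-low macrophages. With every cell weighing the same, counts were 356 and 630 between genotypes, 24 higher against Alox15-positive LPM and 56 lower against Gata6-low macrophages, and Lyz2 was at -0.75. Centred on the median gene, Lyz2 was at -0.61. At 50 CPM the counts were 39 and 62, 6 and 5, and 37 and 10 in the 3 comparisons, and at 5 CPM they were 826 and 1157, 38 and 46, and 170 and 37.

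Some ratios past the fold limit turned direction. Between genotypes these were Cd209a, at 0.48 without doublets, 0.030 after thinning and 0.31 without NK or T cell transcripts, and Mcm6, at 0.28 with 0 Alox15 UMIs. After thinning they were also Apoc1 at -0.057, Cxcl2 at -0.36, Gzma at 2.29 and Stmn1 at -0.19. Against Alox15-positive LPM, Lcn2 was at 0.49 after thinning in fl/fl. Against Gata6-low macrophages, S100a9 was at 0.067 with at least 500 genes in Cd36-/-, and at 0.91 and 0.69 after thinning. Gzma there was at 0.17 and -1.04 after thinning and at -0.062 with at least 3 Marco UMIs in fl/fl. The median of the acute phase list against Alox15-positive LPM turned to 0.10 at 5 CPM in fl/fl and to 0.16 with every cell weighing the same in Cd36-/-. Of 624 single gene ratios, 55 changed sign after thinning. Of these, 10 had been past the fold limit and are the ones given here, and 45 had not, among them H2-Aa and Cd74 between genotypes. The 953988 UMIs of the fl/fl members limited the values of low genes.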
